A study of Homo sapiens with 4 samples.

Results

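The sites described here are the places where PPARG gave a ChIP-seq peak in the lung adenocarcinoma line NCI-H1993 and none in the lung adenocarcinoma line NCI-H2347. They number 907 of the 1419 peaks of NCI-H1993, or 63.9% (95% Wilson interval 61.4% to 66.4%), and of 3644 peaks over both lists. The members were chosen by their overlap with the other list: a peak had to share 0 bp with every NCI-H2347 peak, be at most 2500 bp wide and lie on an assembled chromosome of build hg19. Before the limits on width and chromosome, 933 NCI-H1993 peaks (65.8%) had no overlapping peak, and the limits removed 18 wide peaks and 8 on unassembled contigs. Absence from the other list, width and place therefore define these sites and are no findings, and the score comes from the same peak calling and is given as a description.

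Both lines carried a bacterial artificial chromosome that encodes PPARG with the LAP tag, which contains EGFP, and chromatin was precipitated with a goat antibody against EGFP, so the tagged protein and not the endogenous receptor was mapped. The cells grew in RPMI-1640 with 5% serum, and the labels give treatment as not applicable and do not say whether a line was 1 clone. Both deposited lists carry PIO in their names, an abbreviation without explanation in the labels, so whether the cells had received a PPARG ligand cannot be told for any peak below. There was 1 ChIP and 1 input library per line. The input libraries were not analysed here, no replicate was at hand, and the depth of the libraries is unknown. Each value below is a comparison of 2 lists, and a site that is missing from the NCI-H2347 list may have been bound below its calling threshold.

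PPARG is a nuclear receptor that fatty acid derivatives and thiazolidinedione drugs activate. It binds DNA together with a retinoid X receptor, most often at direct repeats of a short half-site separated by 1 base. It is known as the main regulator of fat cell formation and of genes for fatty acid uptake and storage, and in the lung it is best known from alveolar macrophages and from epithelial cells. Gene positions and sequence of hg19 were not used here, so the sites are named by position and neither genes nor motifs are assigned to them.

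At the edges of the rule, the members closest to an NCI-H2347 peak were separated from it by 53, 99 and 112 bp, and the shared peaks with the least overlap shared 92, 319 and 342 bp. The widest members measured 2471 and 2429 bp, and the narrowest peaks left out for their width measured 2506 and 2645 bp. No member touched an NCI-H2347 peak end to end (0 peaks with a gap of 0 bp).

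Sites present only in NCI-H1993 were mostly weak calls, with a tail of strong ones. The authors' score, for which the lowest value in the list is 50.03, had a median of 65.3 over the members (95% interval 63.4 to 66.7 from the binomial order statistics), with quartiles of 55.1 and 85.3. The 481 shared NCI-H1993 peaks within the same limits had a median of 86.1 (81.1 to 89.7) and quartiles of 63.9 and 123. Scores under 55, next to the threshold, were held by 226 members (24.9%, 22.2% to 27.8%) and by 41 shared peaks (8.52%, 6.35% to 11.4%). Scores of 100 or more were held by 143 members, or 15.8% (13.5% to 18.3%), where 23.8% of the whole NCI-H1993 list held them. The count reads below that background, while the shared peaks stood at 38.3% (34.0% to 42.7%). No test is given for any of these values, because score and membership come from the same calling.

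The fall with score was gradual, and unshared peaks were present at every level. When the 1388 peaks within the limits were split by score into 10 bins of equal size, members made up 84.9% (78.0% to 89.9%) of the lowest bin, with scores of 50.03 to 52.22. The share was 71.9% in the third and in the fourth bin, 61.2% in the seventh and 47.1% in the ninth. In the highest bin, with scores from 143 to 716, 50 of 138 peaks or 36.2% (28.7% to 44.5%) were members. Members took 31 of the 100 highest places in the NCI-H1993 list and 6 of the first 20.

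**Figure D1:**
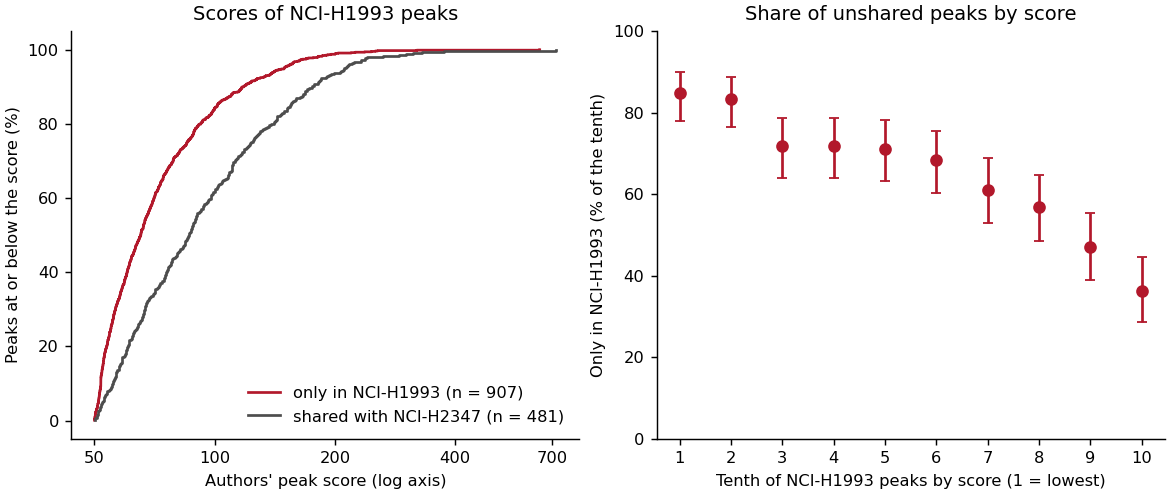
Left, cumulative percentage of NCI-H1993 peaks (vertical axis) at or below an authors' score (horizontal log axis) for members and shared peaks. Right, percentage of members in each of 10 bins of NCI-H1993 peaks by score, with 95% Wilson intervals: it falls from 84.9% in the lowest bin to 36.2% in the highest.

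Members were narrower than shared peaks by a small margin. Their median width was 700 bp (686 to 718 bp) with quartiles of 583 and 879 bp, against 771 bp (751 to 797 bp) for the shared peaks. Width went with score inside the set. With the members split by score into 5 bins of nearly equal size, the median width was 598 bp in the lowest bin, 710 bp in the middle one and 833 bp in the highest. In all, 115 members (12.7%) were wider than 1000 bp and 23 (2.54%) wider than 1500 bp, beside 16.6% and 2.49% of the shared peaks. Together the members covered 0.692 Mb of the 1.20 Mb in NCI-H1993 peaks.

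The 10 strongest members lay on 8 chromosomes. The highest, at chr1:121483888-121485608, scored 651 and was second in the whole list, but it bordered the longest stretch of chromosome 1 that held no peak of either line, 23.0 Mb long. How reads map at that site was not tested. The second, at chr3:157503935-157504939, scored 321 and ranked 6. Its nearest NCI-H2347 peak was 654 kb away, and its nearest shared site 6480 kb away. The third, at chr12:68098581-68100447, scored 256, and its nearest NCI-H2347 peak was 59.6 kb away.

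The next members in rank began at chr1:230294470 (score 252), chr5:159687798 (247), chr8:118823320 (237) and chr6:152221990 (225). The site on chromosome 8 also bordered the longest peak-free stretch of its chromosome, and a site on chromosome 19 from 18570560 (score 220) lay 1.15 Mb from such a stretch. A member on chromosome 5 from 139748775 scored 204, and one on chromosome 16 from 87350418 scored 201 with a width of 348 bp. For all 10, the nearest NCI-H2347 peak was one that NCI-H1993 lacked, between 52.3 kb and 3709 kb away. The site on chromosome 6 was the most remote of them. Of the 10 strongest members with no NCI-H2347 peak within 100 kb, 6 were already among these. The other 4 began at chr1:88877745 (score 190, 2804 kb from the NCI-H2347 list), chr2:61421233 (182, 176 kb), chr3:114215455 (181, 2405 kb) and chr10:2020541 (177, 1709 kb).

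Most members lay more than 50 kb from any site of NCI-H2347, and a minority lay closer to one. The median distance to the nearest NCI-H2347 peak, edge to edge, was 331 kb (95% interval 291 to 380 kb), with quartiles of 79.9 and 1018 kb. Within 1 kb there were 11 members, within 10 kb 50 (5.51%, 4.21% to 7.19%), within 50 kb 174 (19.2%, 16.8% to 21.9%) and within 1000 kb 674 (74.3%). For scale, the next NCI-H2347 peak beside a shared site, leaving out those it overlapped, was a median of 156 kb away (117 to 193 kb), and 31.8% (27.8% to 36.1%) of shared sites had one within 50 kb. Unshared NCI-H2347 peaks lay a median of 450 kb (405 to 498 kb) from the shorter NCI-H1993 list, with 15.2% within 50 kb. All these distances are to a list that the rule used, and no difference between them was tested. Distances of random positions were not computed. The median distance of the members did not follow the score. Over the same 5 bins it ran from 311 to 362 kb with no order, with 315 kb in the lowest bin and 337 kb in the highest.

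**Figure D2:**
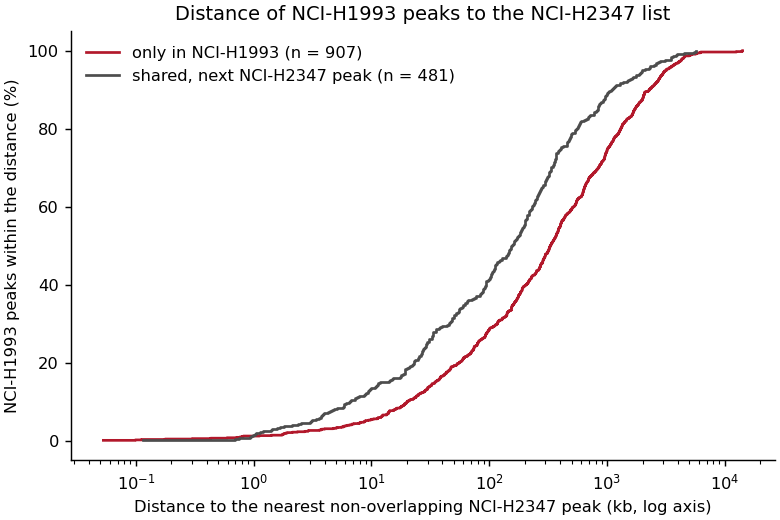
Cumulative percentage of NCI-H1993 peaks (vertical axis) by the distance in kb to the nearest NCI-H2347 peak that they do not overlap (horizontal log axis). The curve of the 907 members, with a median of 331 kb, runs to the right of that of the 481 shared peaks, with a median of 156 kb.

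The most remote members were 3 sites on chromosome 6 from 74289597, 74484000 and 75892714, which stood 14.2, 14.0 and 12.5 Mb from the NCI-H2347 list and scored 53.3, 52.3 and 83.0. All 3 lay within 3 Mb of the longest peak-free stretch of the chromosome, and the remotest bordered it. A pair on chromosome 5 from 125703991 and 125782074 was both remote and strong, with scores of 166 and 161 at 5.73 and 5.65 Mb. These remote sites were picked once their distances were known. In all, 11 members were more than 5 Mb from any NCI-H2347 peak. A further measure of isolation gave 94 members (10.4%, 8.54% to 12.5%) with no peak of either line within 1 Mb, and their median score of 63.5 was close to that of all members.

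At the other end were members that sat next to an NCI-H2347 site without touching it. The closest, at chr17:73994164-73995201, scored 187. The NCI-H2347 peak 53 bp upstream of it by coordinate, from 73992570 to 73994110, scored 437 and was itself shared with another NCI-H1993 peak. A site on chromosome 15 from 76603763 scored 65.6 and lay 302 bp from an unshared NCI-H2347 peak with a score of 280. On chromosome 14 from 61833796, a member with a score of 72.4 lay 177 bp from a shared site that scored 161 in NCI-H2347. The other pairs of the closest 5, on chromosome 17 from 57373364 and chromosome 9 from 33329780, were weak in both lists, where the members scored 55.8 and 52.3 and the NCI-H2347 peaks 51.0 and 52.4.

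Within 10 kb, the neighbour in NCI-H2347 was a shared site for 26 of 50 members and a site that NCI-H1993 lacked for 24. Within 50 kb the numbers were 69 and 105 of 174. Over the whole NCI-H2347 list of 2225 peaks, 477 within the limits were shared and 1739 were not. Shared sites thus made up more of the neighbours than of the list, and this was not tested. Of the 50 members, 8 scored 100 or more, and so did 16 of their neighbours. Such scores were held by 15.8% of all members and by 26.2% of all unshared NCI-H2347 peaks within the limits. An example of a shared neighbour, singled out after its values were seen, was on chromosome 10, where a member at 73102926-73103604 that scored 157 lay 2.36 kb from a shared site whose peak scored 233 in NCI-H1993 and whose NCI-H2347 peak scored 362. A site on chromosome 4 from 40397644, singled out in the same way, scored 147 and lay 6.22 kb from an unshared NCI-H2347 peak with a score of 143. Each of these peaks was above 100 in its own list, and scores were not compared between the lists.

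The share of NCI-H1993 peaks that were members differed little between most chromosomes. Over all chromosomes within the limits it was 65.3% (62.8% to 67.8%). Chromosome X stood highest, with 23 of 26 peaks (88.5%, 71.0% to 96.0%). That interval covers counting error over peaks of the same library and is no test of X against the other chromosomes. On X, NCI-H2347 had 45 peaks, of which 42 were unshared, beside 1739 of its 2225 peaks over all chromosomes. Most NCI-H2347 peaks were thus unshared in the whole list too, and the share on X rests on few shared peaks. The strongest members on X lay from 56790063 (score 172) and from 109090202 (110). With a score of at least 100, members were 4 of 5 peaks on X (80%) and 6 of 7 on chromosome 16 (85.7%). X thus did not stand highest at that limit.

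The next chromosomes were 16 with 30 of 40 peaks (75%), 7 with 72 of 98 (73.5%, 64.0% to 81.2%) and 5 with 65 of 89 (73.0%, 63.0% to 81.2%). Chromosome 22 stood lowest with 11 of 23 (47.8%, 29.2% to 67.0%). Among peaks that scored 100 or more, members were 143 of 327 over all chromosomes (43.7%, 38.5% to 49.1%). Chromosome 7 was near that share with 11 of 24 (45.8%), while chromosome 5 had 16 of 21 (76.2%) and chromosome 16 had 6 of 7. With 23 chromosomes looked at and peaks that share a library, no test was made and no chromosome is called different.

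**Figure D3:**
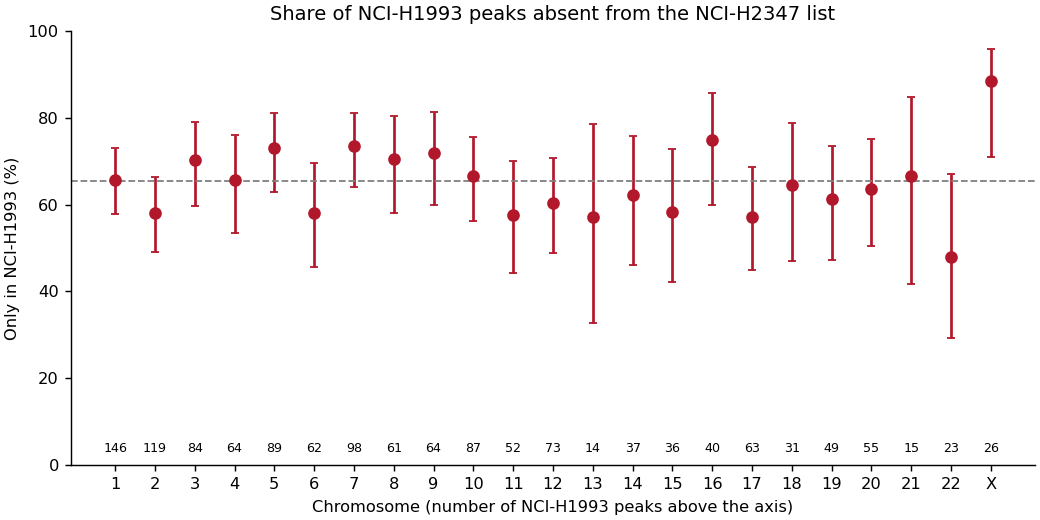
Percentage of NCI-H1993 peaks on each chromosome that are members (vertical axis), with 95% Wilson intervals; numbers above the horizontal axis count the peaks and the dashed line marks 65.3%, the share over all chromosomes. Chromosome X, at 88.5%, is the highest and chromosome 22, at 47.8%, the lowest.

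Most members had no other member close by. Another NCI-H1993 peak lay within 10 kb of 62 members (6.84%, 5.37% to 8.67%), where 8.22% of all NCI-H1993 peaks on chromosomes had one. The members' share is near that background. Another member lay within 10 kb of 39 members, in 19 groups, of which 18 were pairs and 1 a triplet on chromosome 14 from 102494988 to 102501143 with scores of 51.8 to 59.2. The strongest pair spanned 8.75 kb on chromosome 5 from 159687798, with scores of 90.1 and 247. A window of 1 Mb held a single member in 487 of 670 windows that held any, and 5 members at most.

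The 4 windows with 5 members differed in what NCI-H2347 showed there. On chromosome 7 from 107000001 and on chromosome 18 from 43000001 the members were the only peaks of either line, with scores of 53.0 to 164 and of 50.5 to 73.2. On chromosome 10 from 73000001, 2 shared sites lay in the same window and NCI-H2347 had no site of its own (0 unshared peaks). The members there scored between 55 and 157, and 3 of the 5 exceeded 100. On chromosome 20 from 32000001, NCI-H2347 had 3 unshared peaks and 1 shared one, and the members scored between 51.0 and 117.

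Windows with 4 members numbered 4, and all are given because of the tie. On chromosome 1 from 154000001, the members lay within 32.6 kb, with scores of 53.5 to 103, and the first was 2.13 kb from an unshared NCI-H2347 peak that scored 56.6. On chromosome 7 from 142000001, the members scored 51.7 to 123, and the window also held an NCI-H2347 peak with a score of 482 that NCI-H1993 lacked. The other windows of 4 adjoin each other at the start of chromosome 5. No NCI-H2347 peak was found there between the start of the chromosome and position 1545576, a stretch with 7 members. The strongest of these 7 lay from 385714 (score 163) and from 1516359 (185).

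Sequences of neighbouring members with neither a shared site nor an NCI-H2347 peak between them, here called runs, were then counted over the whole genome. The runs named below were outside the rules fixed for naming sites. The members formed 568 runs, and 362 members (39.9%, 36.8% to 43.1%) stood alone in theirs. Runs of at least 5 numbered 13 and held 86 members (9.48%). Under the mirrored rule the 1739 NCI-H2347 peaks formed 679 runs, of which 81 had at least 5 peaks and the longest had 20. The longer list gives longer runs, so these lengths are not compared. The longest runs of members had 10, 9 and 8 members on chromosome 7 and 8 on chromosome 18.

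The longest run stretched over 4.89 Mb of chromosome 7, from 107199545 to 112090557, between an NCI-H2347 peak 1.34 Mb before it and one 2.47 Mb after it. In order of position its 10 members scored 53.0, 64.4, 164, 102, 151, 52.7, 55.9, 124, 87.1 and 126, with a median of 94.8. Of the 10, 5 exceeded a score of 100. They were also wide: their widths ran from 884 to 1846 bp with a median of 1281 bp, and 8 of 10 were wider than 1000 bp. Of all members 12.7% were that wide, and of the 62 other members on chromosome 7 21.0% (12.7% to 32.6%), with a median of 773 bp.

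The shared sites just before that run were also wider in NCI-H1993 than in NCI-H2347. The nearest 3 shared sites before it measured 1270, 1466 and 2662 bp in NCI-H1993 and 871, 901 and 990 bp in NCI-H2347. The peak of 2662 bp was above the width limit of 2500 bp set for members. The NCI-H1993 scores of these sites were 134, 219 and 115, and the NCI-H2347 scores were 54.8, 133 and 148. Over all 486 shared pairs, the NCI-H1993 peak was the wider in 31.7% (27.7% to 36.0%), with medians of 773 and 905 bp, so all 3 pairs went the less common way. An unshared NCI-H1993 peak of 2895 bp, left out for its width, lay among them. These sites were looked up after the run was seen, and no test was made.

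NCI-H1993 is known as a line with an amplified MET gene on chromosome 7. Gene positions were not used here, so this run is not assigned to MET, and the distance of MET from it is not given. Copy number was not measured in these lists, and its part in this run was not tested.

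**Figure D4:**
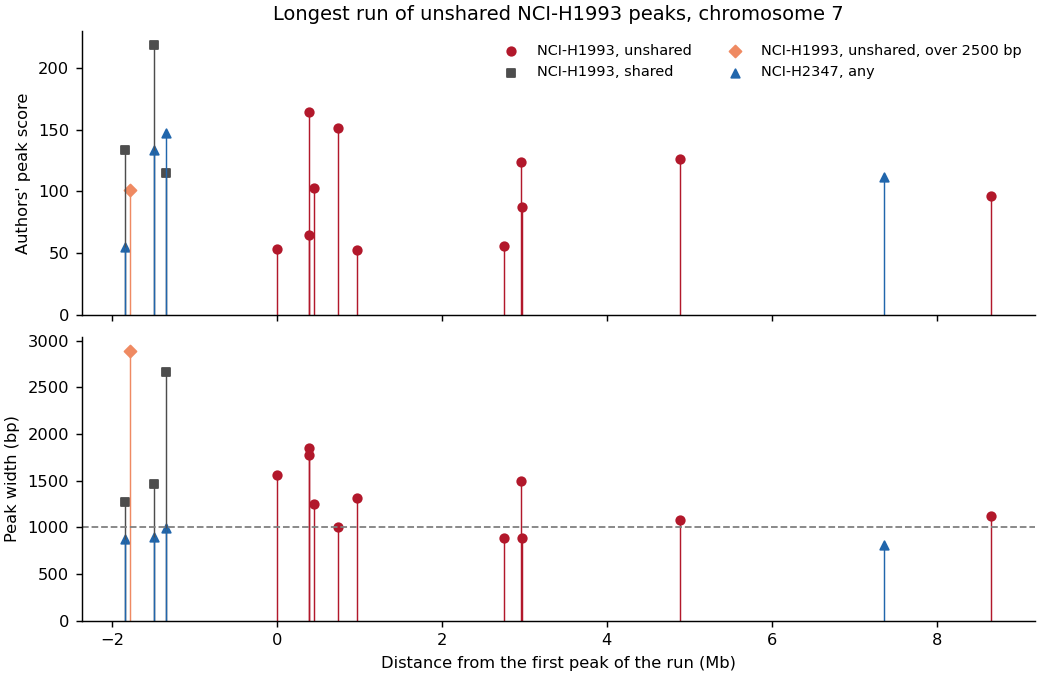
Authors' score (top) and width in bp (bottom) of each peak of both lines around the longest run, by distance in Mb from its first member on chromosome 7; the dashed line marks 1000 bp. The 10 members lie between 0 and 4.89 Mb with no NCI-H2347 peak among them, and 8 of them are above the line.

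The other long runs given here had median widths from 742 to 1082 bp. The run of 9 on chromosome 7 from 4721159 spanned 8.24 Mb with scores of 57.5 to 104. Its median width was 742 bp, with 1 of 9 members above 1000 bp. The run of 8 on chromosome 7 from 99730173 spanned 1.98 Mb, with scores of 53.2 to 75.3. Its median width was 949 bp, with 3 of 8 members above 1000 bp. The run on chromosome 18 from 43382364 had scores of 50.5 to 73.2 and a median width of 783 bp, with 1 of 8 members above 1000 bp. The run of 7 at the start of chromosome 5 was wider, with scores of 57.0 to 185, a median width of 1082 bp and 5 of 7 members above 1000 bp. A run of 7 on chromosome 10 from 62576086 had scores of 51.4 to 164, a median width of 1055 bp and 4 of 7 above 1000 bp. In their highest scores and in width, both were nearer to the longest run than the 3 before them.

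A few windows held mostly wide members. By windows of 5 Mb, members wider than 1000 bp numbered 6 of 8 at the start of chromosome 5, 6 of 7 on chromosome 7 from 105000001, 6 of 11 on chromosome 10 from 70000001 and 4 of 7 on chromosome 7 from 95000001. The first of these windows contains the run on chromosome 5 and the second most of the longest run. In the same order, 2 of 3, 0 of 3, 3 of 10 and 1 of 4 NCI-H2347 peaks in these windows were that wide, where 24.1% of all NCI-H2347 peaks were. Of the shared NCI-H1993 peaks within the limits, 0 of 1, 2 of 2, 1 of 4 and 1 of 1 were. The windows were singled out after their counts were seen.

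Some members sat next to long stretches without peaks or next to very wide peaks. Members within 3 Mb of the longest peak-free stretch of their chromosome, or within 100 kb of a peak wider than 2500 bp, numbered 67 (7.39%, 5.86% to 9.27%). Shared peaks lay within 3 Mb of such a stretch as often, 6.65% beside 6.17% of members. The 67 had a median width of 778 bp and a median score of 66.2, and the 840 others had 695 bp and 65.1. Among members wider than 1500 bp, 7 of 23 belonged to the 67. They include the widest member, at chr3:12511303-12513773 with a score of 51.9, which followed a 7705 bp peak of NCI-H1993 by 12.4 kb, and a member of 2260 bp on chromosome 16 from 46391736 with a score of 154. None of the members in the 4 longest runs or in the 8 windows above belonged to the 67 (0 members).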

How the data were processed

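Per the submitters' processing notes, peaks were called with MACS 1.4.2 on build hg19. The aligner, filters, threshold and use of the input are not given in the sources used here. Deposited lists hold 5 columns (chromosome, start, end, name and the authors' score), 1 list per ChIP library. Scores were ranked within a list only, and where scores of both lists are printed they are not compared. Starts were converted to 1-based positions. Members were found by interval overlap and checked with bedtools 2.31.1. The code was also tested on simulated peaks planted on the NCI-H2347 peaks or well apart from them. Short gaps and slight overlaps were not part of that test.

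Shares carry 95% Wilson intervals and medians carry binomial order-statistic intervals. Both cover counting error over peaks, which are not replicates, and no hypothesis test was made. Fixed rules named the 10 highest-scoring members and the 10 highest-scoring with no NCI-H2347 peak within 100 kb. They also named the fullest 1 Mb windows and the 5 members nearest to an NCI-H2347 peak. Outside them were the sites marked in the text, the runs, the close groups, the 5 Mb windows and the strongest sites on X. So were the widest members, the members near peak-free stretches or wide peaks, and the peaks left out of the set. Members and rules were chosen with earlier results of these data known. The planned gene annotation, gene lists, motif and repeat searches need hg19 sequence or annotation and were not run. Python 3.11.15, numpy 2.4.6, pandas 2.3.3, scipy 1.17.1 and matplotlib 3.10.9 were used.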

Additional observations from a re-analysis of the deposited data

How the results depend on the processing

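The number of members was 901, 943 and 939 when sharing meant a gap of up to 500 bp, 50% reciprocal overlap or midpoints within 250 bp, and their median score and width stayed within the intervals of the main values. It was 199 when both lists were limited to scores of 100 or more and 143 when only NCI-H1993 was. Both counts start from the NCI-H1993 peaks with such a score, 327 within the limits, of which the 143 are 43.7%. The 199 is larger because overlap with an NCI-H2347 peak under 100 no longer counted as sharing. Membership at high scores thus depended on the NCI-H2347 cutoff. The share of members within 50 kb of the other list was 7.39% counting NCI-H2347 peaks with a score of at least 100. It was 12.8% counting unshared NCI-H2347 peaks, and 23.8% (17.5% to 31.4%) for members with a score of at least 100. The first 2 count fewer peaks. The interval of the third includes the 19.2% of all members, and its difference from that share was not tested. At a score of at least 100, the chromosome 7 share was 45.8%, beside 43.7% over all chromosomes, so it moved with the share of the whole list. Members with another within reach numbered 21 at 5 kb and 136 at 50 kb, by construction. The longest run had 5 members at a score of at least 100, and 12 when only NCI-H2347 peaks with that score ended a run. Without the 67 members near a peak-free stretch or wide peak, which was chosen after seeing the data like both run settings, 840 members were left, the longest run kept its length of 10 and 33 members had another within 10 kb. Alternatives for genes, motifs and gene lists were not run. No paired analysis was possible because each cell line had 1 ChIP library. Depth is unknown, so absence from a list cannot be read as absence of binding.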

Other observations

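Unshared NCI-H1993 peaks outside the limits were not counted among the members. The 18 wide ones measured 2506 to 8278 bp and scored 51.3 to 215. The strongest of them, on chromosome 12 from 67876899 to 67879650, lay 219 kb before the member that ranked 12 in the list. On chromosome 16, 3 of them lay between 46394021 and 46430552, and on chromosome 10, 3 lay between 42368621 and 42533197. The 8 contig peaks scored 50.4 to 138, and 3 were on 1 unplaced contig. NCI-H2347 had 0 contig peaks, and whether its contig reads were kept before calling is not given in the sources used here.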
